A study of Mus musculus with 6 samples.

Results

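The genes described here are 10 classic targets of PPAR gamma: the fatty acid binding protein genes Fabp3, Fabp4 and Fabp5, the fatty acid uptake genes Cd36 and Lpl, the lipid droplet genes Plin2, Plin4 and Cidec, and the metabolic regulators Angptl4 and Pdk4. They were chosen as known targets of the receptor and not by a threshold on their values, and every probe set annotated to exactly 1 of them was used. This gave 19 probe sets among 45037 tested, and all 10 genes among 18193. The measurements come from 6 one-colour Affymetrix arrays of 393P, a mouse lung tumour cell line grown as a mass population from a primary tumour of a p53R172H∆g/+ K-rasLA1/+ animal, genotypes that both groups carry. In the MKK4 shRNA group (3 arrays) the cells held a vector expressing a short hairpin RNA against MKK4, the kinase gene Map2k4, and in the control vector group (3 arrays) a scrambled control. The labels give retroviral infection in one place and Lipofectamine transfection in another, name neither the promoter of the hairpin nor a second hairpin, and call the arrays of a group triplicate cultures. Each group is thus 1 population of cells, and p-values cover only how its cultures vary. The comparison asks whether higher RNA of Pparg in the MKK4 shRNA cells is matched by higher RNA of its targets.

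PPAR gamma is a nuclear receptor that binds DNA as a partner of a retinoid X receptor, at a short sequence repeated in the same direction with 1 base between the copies, and is activated by fatty acids and their derivatives. In fat cells it drives genes that take up, carry and store fatty acids. Several of the same genes also respond to the related receptors PPAR alpha and PPAR delta and are expressed in macrophages, muscle, endothelium or epithelium. An increase of the receptor's RNA says nothing of its ligand or its protein, which these arrays do not measure.

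Promoter sequence from RefSeq (GRCm38.p6, 250 bases before to 50 bases after a gene's start) was found for 6 of the 10 genes, Cd36, Cidec, Fabp3, Pdk4, Plin2 and Plin4, in 7 windows. Each was searched on both strands for the receptor's consensus, a direct repeat of AGGTCA with 1 base of any kind between the copies, which fixes 12 of 13 positions. Plin2 and Cd36 are shown because theirs were the 2 windows that held a stretch with at most 2 mismatches. Capitals mark that stretch, which in both reads as the repeat on the strand opposite to the gene.
Plin2, chr4:86670010-86670309, minus strand: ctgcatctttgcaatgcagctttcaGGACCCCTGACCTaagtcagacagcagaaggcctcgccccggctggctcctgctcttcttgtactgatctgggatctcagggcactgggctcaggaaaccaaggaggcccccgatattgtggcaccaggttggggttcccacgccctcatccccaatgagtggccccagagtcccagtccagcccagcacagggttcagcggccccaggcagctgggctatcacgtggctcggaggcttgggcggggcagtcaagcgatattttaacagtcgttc
Cd36, chr5:17835847-17836146, minus strand: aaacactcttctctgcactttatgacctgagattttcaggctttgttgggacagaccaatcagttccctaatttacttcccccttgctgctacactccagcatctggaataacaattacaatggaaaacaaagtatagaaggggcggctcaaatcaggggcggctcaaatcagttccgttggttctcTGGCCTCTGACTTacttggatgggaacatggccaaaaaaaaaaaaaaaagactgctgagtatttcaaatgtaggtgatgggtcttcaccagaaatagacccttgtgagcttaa
The stretch begins 225 bases before the start of Plin2 and 63 bases before that of Cd36. Of 32851 mouse promoter windows of 300 bases, 3.86% held a match with at most 2 mismatches and 0.554% one with at most 1, and no window of these genes held the closer kind. The remaining windows had 3 or 4 mismatches at best. A match of letters is a description of the window and not a site of binding, and elements of these genes outside 300 bases were not searched.

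The arrays were alike in overall level, with median intensities of 92 to 95.76 units and correlations between arrays of 0.990 to 0.995 over all probe sets on the log2 scale. As a guide to background, the highest of the 3 probe sets for trpnX, a control transcript from a bacterium, was between 26.5 and 39.5 units depending on the array. The targeted transcript Map2k4 averaged 274 ± 29.7 units in MKK4 shRNA cells and 645 ± 51.8 units in control vector cells (SD, n = 3 each) on its brighter probe set. All 6 epithelial marker genes examined (Epcam, Cdh1, Krt8, Krt18, Krt19 and Cldn7) lay above the highest trpnX value on every array. Epcam, Cdh1 and Cldn7 were called lower in MKK4 shRNA cells (changes of -0.35, -0.14 and -0.13 on the log2 scale, limma adjusted p = 0.000874, 0.0182 and 0.0272), and Krt19 was called higher (0.23, limma adjusted p = 0.0268).

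Pparg had 298, 361 and 335 units in MKK4 shRNA cells, against 156, 192 and 199 units in control vector cells, on the single probe set annotated to it. That probe set is of a kind that can match several transcripts, and no other was there to check it. Every MKK4 shRNA array lay above every control vector array. The difference was 0.79 on the log2(intensity + 16) scale used for all changes here, which understates changes of dim genes, with a 95% confidence interval of 0.56 to 1.02 and a limma adjusted p of 0.00207. The exact two-sided permutation p was 0.1, the smallest that 3 arrays against 3 allow.

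No called change was found among the 10 target genes. None of them passed limma with Benjamini-Hochberg adjustment at 0.05, where 11.8% of all genes passed, and 0 of the 10 had an unadjusted p under 0.05, where 24.1% of all genes did. With 10 genes, a count of 0 called is near a share of 11.8% and says little of the targets as a group. In addition, 6 of the 10 were above the highest trpnX value on no array, so the share of all genes is not matched to their level. On single probe sets 0 of 19 passed, against 6.37% of all probe sets, and 0 of 19 had an unadjusted p under 0.05, against 18.6%. In each of the 10 genes and on each of the 19 probe sets the 2 groups overlapped, whereas the groups did not overlap in 28.5% of all genes and 23.1% of all probe sets. The sign of the fitted change was positive in 6 genes and negative in 4, with a median of 0.06 over the 10 genes and -0.0067 over all genes. Over the 19 probe sets it was positive in 9 and negative in 10, with a median of -0.0014, beside -0.0064 over all probe sets. The count of all genes called, 2139, fell with any 1 array left out, where the test also has fewer arrays. It was 1662, 1159 and 1249 without MKK4 shRNA replicate 1, 2 and 3 in turn. It was 1541, 1351 and 1324 without control vector replicate 1, 2 and 3 in turn. The count of targets called was 0 in each of these fits.

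**Figure D1:**
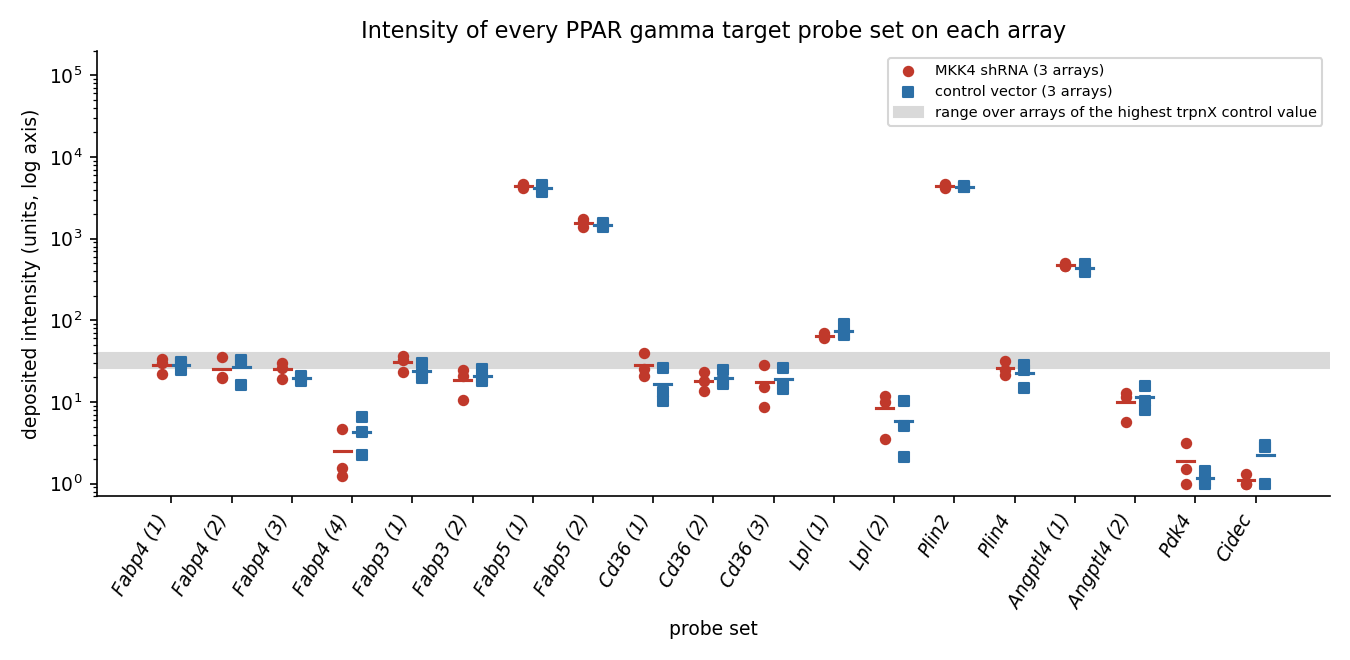
Deposited intensity (log axis) of each of the 19 target probe sets on the 3 MKK4 shRNA arrays (red circles) and the 3 control vector arrays (blue squares), with group means as bars and numbers in brackets for the probe sets of 1 gene in order of brightness. The grey band runs from 26.5 to 39.5 units, the range over arrays of the highest trpnX control value; 14 probe sets lie no higher than its upper edge on any array, and the groups overlap on all 19.

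Some of the genes lay above the trpnX controls and others were near background. The brightest probe sets of Fabp5, Plin2, Angptl4 and Lpl lay above 39.5 units on all 6 arrays, and so did the second Fabp5 probe set. The brightest probe sets of the other 6 genes, Fabp3, Fabp4, Cd36, Plin4, Cidec and Pdk4, did not exceed that value on any array. Among all genes above 39.5 units on every array, 15.6% were called, and of the 4 targets in that class 0. When genes dimmer than the median were left out before the fit, 28.9% of those kept were called and 0 of the 3 targets kept, Fabp5, Plin2 and Angptl4. With 4 and 3 genes, these counts of 0 say little.

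Among the fatty acid binding proteins, small cytosolic carriers that deliver fatty acids to membranes, enzymes and nuclear receptors, Fabp5 was the one with a clear signal. Fabp5, which encodes the epidermal type carrier that is also known to pass ligands to PPAR delta, had 4142, 4621 and 4535 units in MKK4 shRNA cells, against 4129, 3763 and 4537 units in control vector cells. The lowest MKK4 shRNA array was at the level of control vector replicate 1, and the highest control vector array was at the level of MKK4 shRNA replicate 3. The change was 0.07 (95% interval -0.08 to 0.22, limma adjusted p = 0.615), so that the interval runs from 0.943-fold to 1.17-fold. Its second probe set gave 1382, 1728 and 1618 units in MKK4 shRNA cells, against 1477, 1386 and 1565 units in control vector cells, and a change of 0.08. Both probe sets thus overlapped between the groups, with control vector replicate 2 the lowest control on each. Without control vector replicate 3 the Fabp5 change was 0.14 and its adjusted p 0.183, and without control vector replicate 2 it was 0.0027.

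Fabp4, the adipocyte and macrophage carrier often used as a marker of PPAR gamma activity, was near background on all 4 of its probe sets. The brightest gave 33.2, 22.1 and 30.0 units in MKK4 shRNA cells, against 24.4, 30.7 and 30.1 units in control vector cells. The groups were interleaved, and the fitted change was -0.0014 (limma adjusted p = 0.999). The other Fabp4 probe sets averaged 25.2, 25.1 and 2.50 units in MKK4 shRNA cells, against 27.0, 19.5 and 4.35 units in control vector cells. Fabp3, the heart and muscle carrier, had 23.4, 32.5 and 36.8 units in MKK4 shRNA cells, against 22.0, 29.9 and 19.8 units in control vector cells, on the brighter of its 2 probe sets. Here 2 of the MKK4 shRNA arrays were above all controls and the third was not, all within background (change 0.24, limma adjusted p = 0.424), and the other Fabp3 probe set gave a fitted change of the other sign, -0.11.

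Fabp4 and Fabp5 both lie on chromosome 3, with 2 other protein-coding genes between them in the reference annotation, Pmp2 and Fabp9, which are themselves of the fatty acid binding protein family. Of the 9 measured genes named Fabp, the 3 targets included, 0 were called, where 11.8% of all genes were. With so few genes that count says little of the family. Of the 9, 2 lay above 39.5 units on every array and 6 on none. The members outside the 10 targets that were farthest from 0 were Fabp7, the brain carrier, at 40.8 ± 14.8 units in MKK4 shRNA cells and 63.8 ± 3.29 units in control vector cells (SD, n = 3 each), and Fabp2, the intestinal carrier, within background.

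Of the uptake genes, Cd36 encodes a scavenger receptor that brings long-chain fatty acids and oxidised lipoproteins into cells, and Lpl encodes lipoprotein lipase, the secreted enzyme that frees fatty acids from triglyceride. The brightest Cd36 probe set had 20.8, 39.3 and 25.5 units in MKK4 shRNA cells, against 13.2, 10.4 and 26.0 units in control vector cells. MKK4 shRNA replicate 2 stood highest, and control vector replicate 3 lay above the other two MKK4 shRNA arrays. The fitted change of 0.46 was the largest among the 10 genes (95% interval -0.03 to 0.96, limma adjusted p = 0.240), but no value was above the trpnX maximum of 39.5 units. The other 2 Cd36 probe sets gave -0.05 and -0.09. The size of the Cd36 change moved with the settings, to 0.81 with a pseudocount of 1, 0.20 with a pseudocount of 64 and 0.11 with its probe sets averaged, and its limma adjusted p lay between 0.105 and 0.683 over the 14 settings that gave a value (other normalizations, pseudocounts, filters, models and left-out arrays).

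Lpl had 69.3, 64.9 and 60.3 units in MKK4 shRNA cells, against 89.1, 68.3 and 65.5 units in control vector cells. The highest value was control vector replicate 1, and the other 2 controls lay within the range of the MKK4 shRNA arrays. The change was -0.16 (95% interval -0.44 to 0.13, limma adjusted p = 0.529), and without control vector replicate 1 it was -0.04. The dimmer Lpl probe set stayed at or under 11.9 units on every array and gave a fitted change of the other sign, 0.16 (95% interval -0.27 to 0.59).

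Plin2 was measured with the smallest standard error of the 10 genes, 0.035 on the log2 scale. It encodes perilipin 2, or adipophilin, which coats lipid droplets in most cells that store fat. Plin2 had 4144, 4537 and 4609 units in MKK4 shRNA cells, against 4270, 4372 and 4290 units in control vector cells. The MKK4 shRNA arrays held both the lowest and the highest value, and all 3 controls lay between them. The change was -0.0046 (95% interval -0.09 to 0.08, limma adjusted p = 0.962), an interval of 0.942-fold to 1.05-fold. The sign turned to 0.04 on the values as deposited and 0.03 with arrays centred on their medians.

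The other droplet genes among the targets were near background. Plin4, a perilipin of small droplets in fat and muscle cells, had 31.6, 24.5 and 21.6 units in MKK4 shRNA cells, against 14.7, 28.1 and 24.9 units in control vector cells, with control vector replicate 1 the lowest. Cidec, which encodes a protein that fuses droplets in fat cells, was at 1.00, 1.00 and 1.31 units in MKK4 shRNA cells, against 2.97, 2.82 and 1.00 units in control vector cells. A value of exactly 1 was shared by 1475 to 1633 probe sets on each array, so these intensities carry no usable level, and no fold is given. In the wider families, Plin3 had 1647 ± 39.3 units in MKK4 shRNA cells and 1720 ± 102 units in control vector cells, and Plin5 had 279 ± 12.0 units in MKK4 shRNA cells and 240 ± 30.5 units in control vector cells (SD, n = 3 each). Of 4 measured perilipin genes and 3 Cide genes, 0 were called, where 11.8% of all genes were. Of the 3 Cide genes, 2 lay above 39.5 units on no array. With so few genes, a count of 0 says little of these families.

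Angptl4 encodes a secreted inhibitor of lipoprotein lipase that is induced by fasting and low oxygen as well as by PPAR receptors. It had 465, 504 and 459 units in MKK4 shRNA cells, against 395, 414 and 494 units in control vector cells. Control vector replicates 1 and 2 lay below all MKK4 shRNA arrays, and control vector replicate 3 lay above 2 of them. The change was 0.12 (95% interval -0.09 to 0.32, limma adjusted p = 0.512). Without control vector replicate 3 it was 0.22 with an adjusted p of 0.0911, the lowest over its 15 settings, and still not called. This probe set can match several transcripts, and the other Angptl4 probe set, at 15.8 units or less on every array, gave -0.07.

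Pdk4, the kinase gene that shuts down pyruvate dehydrogenase when cells burn fat, was listed at 1.00, 1.52 and 3.18 units in MKK4 shRNA cells, against 1.00, 1.07 and 1.43 units in control vector cells. As for Cidec, these values are at the bottom of the scale and give no level to compare. Pdk4 and Cidec lie on chromosome 6 together with Pparg, and the 10 targets are spread over 6 chromosomes.

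**Figure D2:**
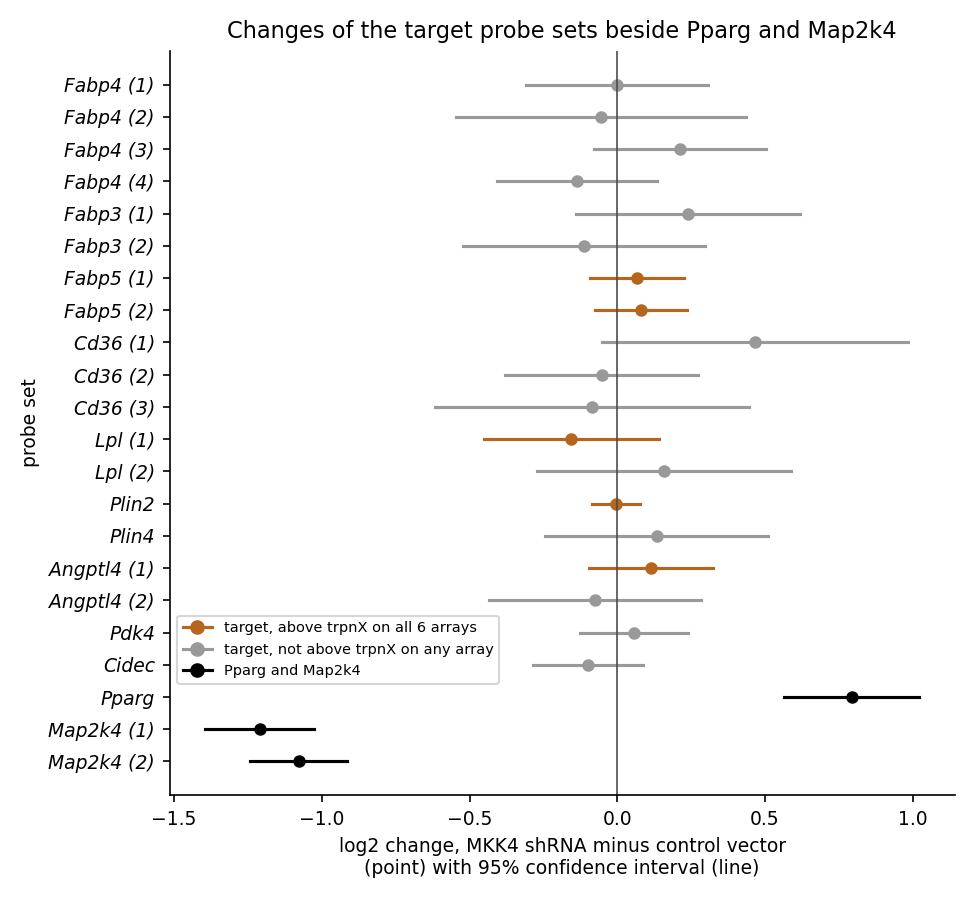
Change between MKK4 shRNA and control vector arrays (point, log2 scale, positive means higher with the shRNA) with its 95% confidence interval for the 19 target probe sets, Pparg and the 2 Map2k4 probe sets. Every target interval includes 0, those of the 5 probe sets above the trpnX controls on all 6 arrays are shown in brown, and the Pparg interval runs from 0.56 to 1.02.

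Set beside Pparg, the intervals of the 4 targets above 39.5 units on all arrays, each on its brightest probe set, did not reach its own. Lpl was the dimmest of the 4, at 60.3 to 89.1 units, under the array medians of 92 to 95.76 units. The upper bounds were 0.22 for Fabp5, 0.08 for Plin2, 0.32 for Angptl4 and 0.13 for Lpl, while the lower bound for Pparg was 0.56. Over all settings run, the highest upper bound was 0.28 for Fabp5, 0.15 for Plin2, 0.40 for Angptl4 and 0.33 for Lpl, against a lowest lower bound of 0.47 for Pparg. The difference between the changes was not itself tested. For the 6 genes near background no such statement can be made. Their intervals reached up to 0.96 (Cd36) on a scale where a pseudocount of 16 is close to the values themselves. Whether a change of RNA at that level could be detected on these arrays was not tested.

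**Figure D3:**
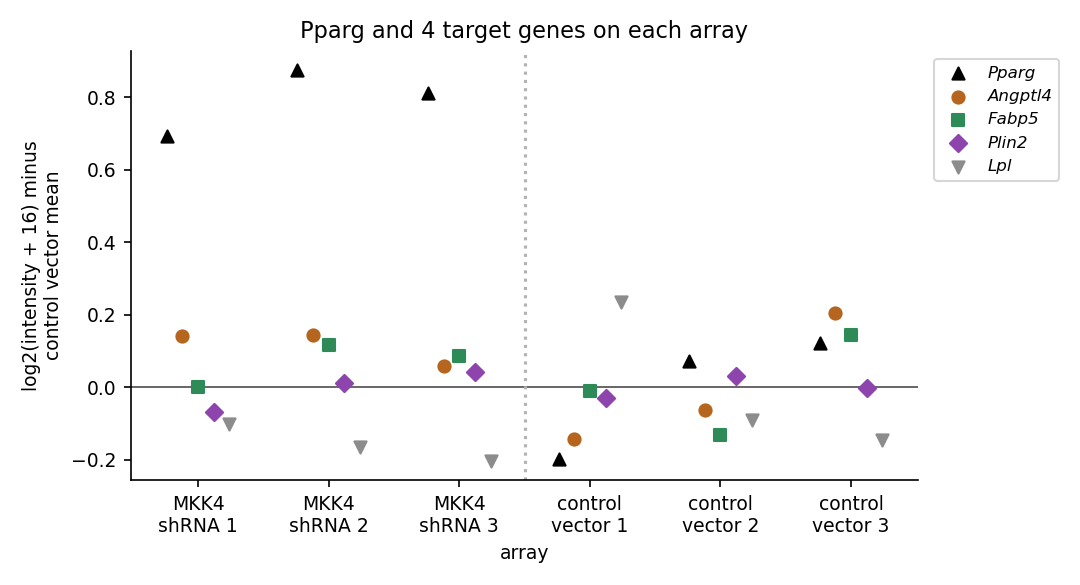
Normalized log2 value of Pparg and of the 4 targets above the trpnX controls on each of the 6 arrays, minus the mean of the control vector arrays. The Pparg points (black triangles) of the 3 MKK4 shRNA arrays stand above all its control points, while the points of Angptl4, Fabp5, Plin2 and Lpl overlap between the groups.

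**Figure D4:**
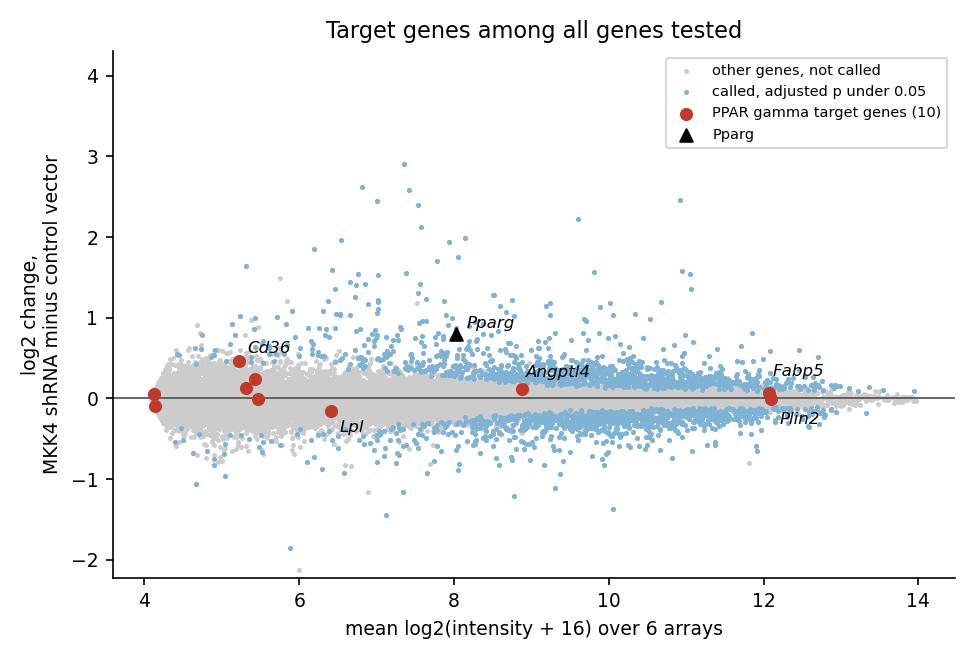
Change (log2, MKK4 shRNA minus control vector) against mean log2(intensity + 16) for all 18193 genes, with the 2139 called genes in blue, the 10 targets in red and Pparg as a black triangle. The targets lie inside the grey band of genes that were not called, 6 of them at the dim end.

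Other known PPAR targets gave a small number of calls in both directions. Of 54 genes listed as targets of a PPAR, 44 were measured here, and 3 were higher and 3 lower in MKK4 shRNA cells. That is 13.6% called, beside 11.8% of all genes, and the median change was -0.04. Vldlr, a lipoprotein receptor gene, had 607, 663 and 670 units in MKK4 shRNA cells, against 262, 258 and 271 units in control vector cells, a rise of 1.22 on the log2 scale (limma adjusted p = 1.46e-05). The size of this rise depended on the probe set: it was 0.46 without the probe sets that can match several transcripts (limma adjusted p = 0.0173) and 0.79 with the gene's probe sets averaged (limma adjusted p = 0.00086). Olr1, which encodes a receptor for oxidised lipoprotein, had 60.7, 83.2 and 77.2 units in MKK4 shRNA cells, against 43.9, 46.5 and 36.6 units in control vector cells, close to the trpnX range (change 0.62, limma adjusted p = 0.0252).

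The remaining calls were in fatty acid oxidation and lipid synthesis, and they were small. Acadvl, the very long-chain acyl-CoA dehydrogenase gene, rose by 0.26. Acadm, its medium-chain relative, fell by 0.16, Hadhb, a subunit gene of the mitochondrial trifunctional protein, fell by 0.13, and Agpat2, an acyltransferase gene of triglyceride synthesis, fell by 0.28. The 6 calls were 3 without MKK4 shRNA replicate 2 or 3, and 3 without control vector replicate 2 or 3. Vldlr, Acadvl and Agpat2 were called in all 15 settings run, Olr1 in 8 of 14, Acadm in 5 of 15 and Hadhb in 2 of 15.

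Among 26 measured receptors, partners and cofactors of the PPARs, 3 were higher and 0 lower. That is 11.5% called, near the 11.8% of all genes (6.37% higher and 5.39% lower). Pparg, from whose rise the comparison starts, is among the 3. Besides Pparg they were Cebpd, a transcription factor gene that acts early in fat cell differentiation, at 181 ± 8.43 units in MKK4 shRNA cells and 69.9 ± 5.38 units in control vector cells, and Nrip1, the gene of the nuclear receptor corepressor RIP140, at 834 ± 60.5 units in MKK4 shRNA cells and 648 ± 24.1 units in control vector cells (SD, n = 3 each). Their changes were 1.19 and 0.34 (limma adjusted p = 0.000253 and 0.00295). With its probe sets averaged, Nrip1 missed the threshold (0.20, limma adjusted p = 0.0513), and the change of Cebpd was 0.77, still called (limma adjusted p = 0.00787). Leaving out control vector replicate 1 added 1 lower gene to this list. Without the dimmer genes, 2 were higher and 1 lower of the 14 kept. The related receptor genes Ppard and Ppara had changes of -0.29 and 0.13 that were not called (limma adjusted p = 0.103 and 0.584).

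Marker genes of other cell types that can express these targets were examined on the same arrays, where 11.8% of all genes were called. Several of them lay above 39.5 units on all arrays. So did 13228 of all 18193 genes, so a value above it is common on these arrays. Of 4 adipocyte markers 0 were called, with summed intensities of 213 to 273 units in MKK4 shRNA cells and 222 to 266 units in control vector cells, and Adipoq and Lep were not above 39.5 units on any array. The other 2 were above it on all arrays, Retn at 166 units in MKK4 shRNA cells and 175 units in control vector cells, and Lipe at 53.3 units in MKK4 shRNA cells and 57.2 units in control vector cells (means). Of 9 macrophage markers 1 was called, the mannose receptor gene Mrc1, at 219 ± 23.9 units in MKK4 shRNA cells and 122 ± 2.09 units in control vector cells (SD, n = 3 each). The 9 summed to 1617 to 1752 units in MKK4 shRNA cells and 1575 to 1654 units in control vector cells, and 6 of them lay above 39.5 units on all arrays. The brightest was Csf1r, the receptor gene for a macrophage growth factor, at a mean of 725 units in MKK4 shRNA cells and 771 units in control vector cells, while Lyz2 and Itgam were above 39.5 units on no array. None of the 6 endothelial markers was called (517 to 669 units summed in MKK4 shRNA cells, 571 to 713 in control vector cells), with 3 above 39.5 units on all arrays, Kdr the brightest at a mean of 345 units in MKK4 shRNA cells and 394 units in control vector cells, and Pecam1 and Tie1 above it on no array. Of 8 fibroblast markers 0 were called (487 to 566 units in MKK4 shRNA cells, 503 to 550 in control vector cells). Above 39.5 units on all arrays were 5, and Dcn and Pdgfrb were above it on no array. Among the 5, Col1a2 had a mean of 188 units in MKK4 shRNA cells and 205 units in control vector cells. Lum went the other way, at 65.9 units in MKK4 shRNA cells and 47.3 units in control vector cells (change 0.37, limma adjusted p = 0.0864). Of 5 muscle markers 0 were called (659 to 712 units in MKK4 shRNA cells, 732 to 797 in control vector cells), with 3 above 39.5 units on all arrays, among them Ckm at a mean of 153 units in MKK4 shRNA cells and 202 units in control vector cells, and Myog above it on no array. The epithelial list, which marks the labelled cell type, had 1 gene called higher and 3 lower of 6 (42502 to 43649 units summed in MKK4 shRNA cells, 43478 to 43774 in control vector cells). In such bulk samples, fewer cells of a type and less RNA per cell cannot be told apart, and the part of these markers in the results was not tested.

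The member with the smallest limma p was Cd36. Among 9096 genes brighter than the median, those whose pattern over the 6 arrays was most like it were Enoph1 (Pearson r = 0.989), Pfas (0.980) and Mrpl41 (0.971), with changes of 0.08, 0.18 and 0.05 that did not pass the test. With 6 arrays and Cd36 within background, such likeness is a description only.

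**Figure D5:**
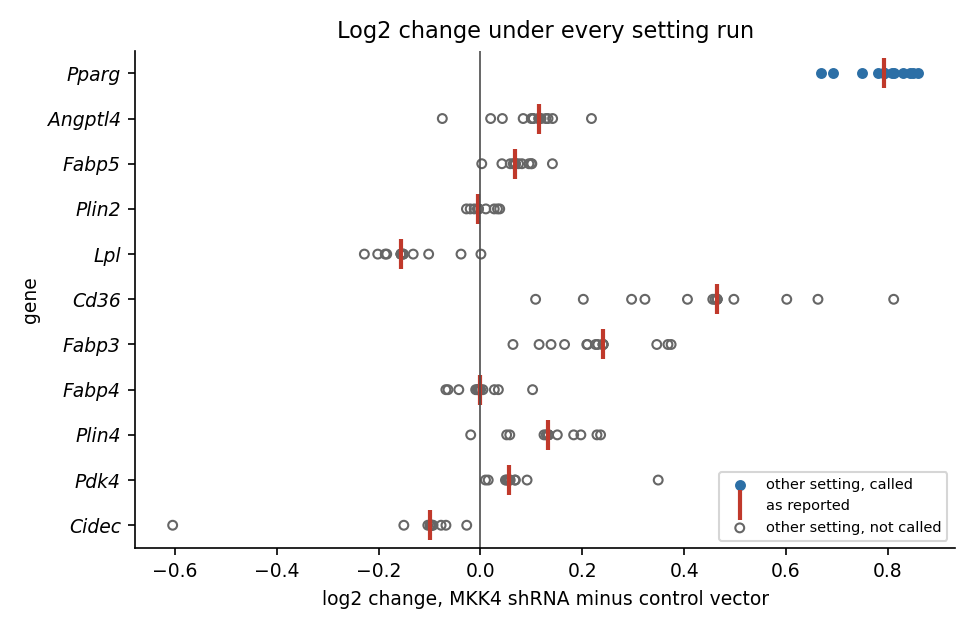
Log2 change (MKK4 shRNA minus control vector) of Pparg and of each target gene as reported (red bar) and under every other setting that gave a value (circles, filled where the gene was called). Pparg was called in all 14 settings, with changes of 0.67 to 0.86, and 0 of the 10 targets was called in any setting; Cd36, from 0.11 to 0.81, and Cidec spread most.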

How the data were processed

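Intensities of 45101 probe sets on 6 arrays were analysed, 3 per group. The deposited intensity is on a linear scale; how the authors summarised probes, corrected background and normalized is not given in the sources used here. A pseudocount of 16 was added, log2 taken and arrays quantile-normalized (limma 3.58.1, R 4.3.3), since medians were close but unequal. The 64 control probe sets were left out. GEO's platform annotation named 34945 probe sets by 1 gene, 932 by several and 9160 by none; symbols were updated by Entrez number. Genes were represented by their brightest probe set (18193 genes), and all 45037 probe sets were also fitted singly. Groups were compared by limma (lmFit, eBayes with trend) with Benjamini-Hochberg adjustment. The number of arrays limits the precision. Alternatives were values as deposited, median centring, pseudocounts of 1 and 64, no dim genes, no trend, the replicate block, no probe sets matching several transcripts, averaged probe sets and each array left out. The test was checked on simulated data. All members with every probe set, Pparg, Map2k4 and called genes of the lists were named. Further family members, receptors and markers, Fabp7, Fabp2, Plin3, Plin5, Ppara and Ppard among them, were picked after their values were seen. Members and lists were chosen with earlier results of these data known. Listed genes without a value were not analysed here.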

Additional observations from a re-analysis of the deposited data

How the results depend on the processing

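No target gene was called under any of the 15 other settings, and no target probe set under the 14 of them run on probe sets, and Pparg was called in the 14 that gave it a value (log2 0.67 to 0.86). Signs of uncalled targets turned: Plin2 to 0.038 as deposited and 0.034 with centred medians, Fabp4 to 4.40e-04 with a pseudocount of 64 and 0.0049 with averaged probe sets, Lpl to 0.0011 with averaged probe sets, and Angptl4 to -0.075 without the probe sets that can match several transcripts. With 1 array left out in turn, Plin2 ran from -0.027 to 0.027, Fabp4 from -0.068 to 0.10 and Plin4 from -0.019 to 0.24. The count of all genes called was 1127 with the prior variance held constant, 1206 with the replicate block and 1159 to 1662 with 1 array left out. Other PPAR targets called were 3 with the replicate block and 3 to 5 with 1 array left out. The cause was not tested. The replicate numbers used here stand for the letters A, B and C of the labels. Arrays with the same replicate number did not deviate together (r = -0.03, -0.0073 and -0.10), so the labels' letters were not taken as pairs. Without the dimmer genes 3 targets remained, 0 called, beside 28.9% of 9097 genes, too few targets for the count to say much. The other 6 targets with no array above 39.5 units lay within background, which limits what these arrays show of them.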
